A study of Mus musculus with 15 samples.

Results

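Amino acid transporters carry amino acids, and a few related osmolytes and neurotransmitters, across the plasma membrane and the membranes of lysosomes. The genes described here are those whose symbols begin with Slc1a, Slc3a, Slc6a, Slc7a, Slc36a, Slc38a or Slc43a followed by a digit, the 7 solute carrier families that hold most of the known mammalian amino acid carriers. The rule uses the symbols alone, but it was set with earlier results of these data known. It gave 64 of the 19937 genes tested: 7 of Slc1a, 2 of Slc3a, 21 of Slc6a, 16 of Slc7a, 4 of Slc36a, 11 of Slc38a and 3 of Slc43a. Slc6a19os and Slc7a6os are named for the opposite strand of a carrier gene and are not known as carriers. Slc6a20a and Slc6a20b are close paralogs, so their signals may not be fully separate.

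Expression was read on 15 whole-transcript Affymetrix arrays, 5 groups of 3, from 1 mouse embryonic stem (ES) cell line that had been adapted to 2i, a serum-free culture with a pair of kinase inhibitors. The line was shared by all groups and carries Ctnnb1-Biotin-3xFLAG, a tag knocked into the beta-catenin gene, together with the biotin ligase BirA, so every group is this modified line and no untagged line was compared. CHIR99021 (3 µM) inhibits GSK3 and so stabilises beta-catenin, PD0325901 (1 µM) inhibits MEK and so blocks ERK signalling, and LIF is the cytokine that activates STAT3. Cells of the 2iLIF group grew long term in both inhibitors plus LIF. After 24 h of withdrawal, the 2i group retained both inhibitors, the CHIR group retained CHIR99021, the PD03 group retained PD0325901 and the DMSO group retained no inhibitor, all without LIF. Each difference thus sets cells that kept a factor against cells 24 h after its withdrawal. Below, rose, fell, raised, lowered and on top are short for this, and no factor was newly added. No withdrawal time applies to 2iLIF, so keeping LIF and not passing through withdrawal cannot be told apart in 2iLIF minus 2i. For each array 300 ng of total RNA was labelled. Whether the 3 replicates of a group were separate cultures is not stated in the labels, so p-values reflect the spread among these arrays, which may be technical. Values are log2 RMA signals, ± SD for a group (n = 3) and ± SE for a difference. A gene passed when its limma p-value, adjusted by Benjamini-Hochberg over the 19937 genes tested in that comparison, fell below 0.05. Probes differ in brightness, so a higher signal of one probe set than another is not read as more RNA. Signal levels and means over gene lists are descriptions.

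The ES cell markers Pou5f1, Sox2, Nanog and Zfp42 were bright in every group, with a mean over the 4 genes from 11.38 in DMSO to 11.85 in 2iLIF. Zfp42 had its lowest mean, 9.82, in DMSO and its highest, 10.66, in 2iLIF. Axin2, a beta-catenin target, was 1.45 higher in CHIR than in DMSO on the log2 scale. Dusp6, an ERK target, was lower in PD03 than in DMSO (log2 difference -1.72). Dusp6 also passed as lower in CHIR than in DMSO, with means of 10.41 and 11.06, so its fall was not particular to PD0325901. Socs3, a STAT3 target, was 1.64 higher in 2iLIF than in 2i. The means over the marker lists of other cell types were 6.80 to 6.89 for fibroblasts (6 genes), 6.61 to 6.69 for endoderm (5 genes), 6.55 to 6.86 for trophoblast (5 genes) and 7.34 to 7.74 for neural cells (6 genes). In the neural list Pax6 ranged from 6.54 in 2iLIF to 8.19 in PD03 and Tubb3 from 8.38 in CHIR to 9.33 in PD03, while the glial marker Gfap stayed at 5.78 to 5.95. In the trophoblast list Eomes ranged from 7.79 in DMSO to 9.59 in 2iLIF, and the group means of Elf5 were 5.63 to 5.71. The part of these marker differences in the transporter results was not tested. In bulk RNA, fewer cells of a type and less RNA per cell cannot be told apart.

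Amino acid carriers work by coupling. The glycoprotein heavy chains, Slc3a1 and Slc3a2, escort light chains of the Slc7 family to the membrane, and most of these pairs exchange one amino acid for another. The Slc1, Slc6 and Slc38 carriers draw on the sodium gradient, Slc36 carriers on protons, and the Slc43 carriers are facilitative. In ES cells amino acid supply is tied to the cell state: glutamine feeds the tricarboxylic acid cycle, threonine breakdown supplies one-carbon units, proline uptake is linked to a primed-like state, and cystine uptake supports glutathione. Starvation for amino acids induces several carriers through the transcription factor ATF4, which binds amino acid response elements, and oxidative stress induces Slc7a11 through NRF2, which binds antioxidant response elements.

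Promoter sequences were taken from RefSeq (GRCm38.p6), which had an entry for 47 of the 64 members. Each is the 250 bases before an annotated start, 5′ to 3′ on the gene's strand, and capitals mark matches to TGATGNAA, a short form of the amino acid response element, on either strand. Slc7a11 and Slc7a7 are shown because they are light-chain genes with one of the clearest orderings of the groups and because both hold a match. Slc1a3 is shown because it passed all 7 comparisons. The minus-strand windows are chr3:50443614-50443863 for Slc7a11, chr14:54417945-54418194 for one of several starts of Slc7a7, and chr15:8710808-8711057 for Slc1a3.
Slc7a11: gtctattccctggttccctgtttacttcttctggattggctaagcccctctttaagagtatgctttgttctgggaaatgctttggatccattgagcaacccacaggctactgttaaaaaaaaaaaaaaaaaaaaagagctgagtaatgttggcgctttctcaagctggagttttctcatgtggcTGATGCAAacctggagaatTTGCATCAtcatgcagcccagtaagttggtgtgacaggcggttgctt
Slc7a7: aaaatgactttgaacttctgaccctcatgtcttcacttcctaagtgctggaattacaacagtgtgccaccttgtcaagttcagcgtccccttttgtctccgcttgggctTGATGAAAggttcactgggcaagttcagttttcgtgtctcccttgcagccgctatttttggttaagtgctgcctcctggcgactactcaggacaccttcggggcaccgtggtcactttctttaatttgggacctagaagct
Slc1a3: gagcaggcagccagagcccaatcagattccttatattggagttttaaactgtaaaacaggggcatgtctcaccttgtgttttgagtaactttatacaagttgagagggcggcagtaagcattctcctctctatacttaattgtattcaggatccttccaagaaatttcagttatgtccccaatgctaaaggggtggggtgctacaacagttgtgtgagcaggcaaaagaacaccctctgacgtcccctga
The Slc7a11 window held TGATGCAA at positions -66 to -59 before the start and its reverse-complement form, TTGCATCA, at -47 to -40. The Slc7a7 window held TGATGAAA at -141 to -134. Another Slc7a7 start, whose window is not printed, had TGATGCAA at -243 to -236. The Slc1a3 window held no match to this motif, nor to TGACNNNGC (the core of the antioxidant response element), CTTTGAT (a TCF/LEF site) or CACGTG (an E-box), each searched on both strands. Over all members with an entry, TGATGNAA was found in 3 of 47 (6.38%; Slc6a21, Slc7a7 and Slc7a11), against 3.91% of 27025 genes. The other shares were 17.0% against 11.5% for TGACNNNGC, 10.6% against 3.72% for CTTTGAT and 19.1% against 6.86% for CACGTG. TGACNNNGC was in 4 of 22 members that passed a comparison and 4 of 25 that passed none. The counts were 3 and 2 for CTTTGAT, 3 and 6 for CACGTG, and 2 and 1 for TGATGNAA. Slc7a11 held no TGACNNNGC. These are matches of letters, and binding was not measured.

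Of the 64 members, 31 passed at least 1 of the 7 comparisons and 33 passed none, against 40.3% of all genes with at least 1. Every one of the 9 members whose highest group mean lay between 8 and 10 passed something, as did 12 of the 16 at 10 or more. The same shares over all genes were 66.5% and 62.7%. Between 6 and 8, 8 of 27 members passed (29.6%), against 31.6% of all genes. Below 6, where a signal may be background, 2 of 12 passed (16.7%), against 7.55%. The 4 bright members with no passing comparison were Slc1a5, Slc38a1, Slc3a2 and Slc7a6. Few differences were large. A difference of at least 1.5-fold was reached with a passing test by 2 members in CHIR minus DMSO (1.82% of all genes), 3 in PD03 minus DMSO (1.74%), 3 in 2i minus DMSO (3.12%), 2 in 2iLIF minus 2i (1.04%) and 1 in the interaction (0.391%). By limma 0 members did so in 2i minus CHIR (0.722% of all genes) and 0 in 2i minus PD03 (1.42%), and at an unadjusted p under 0.05 the counts were also 0.

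**Figure D1:**
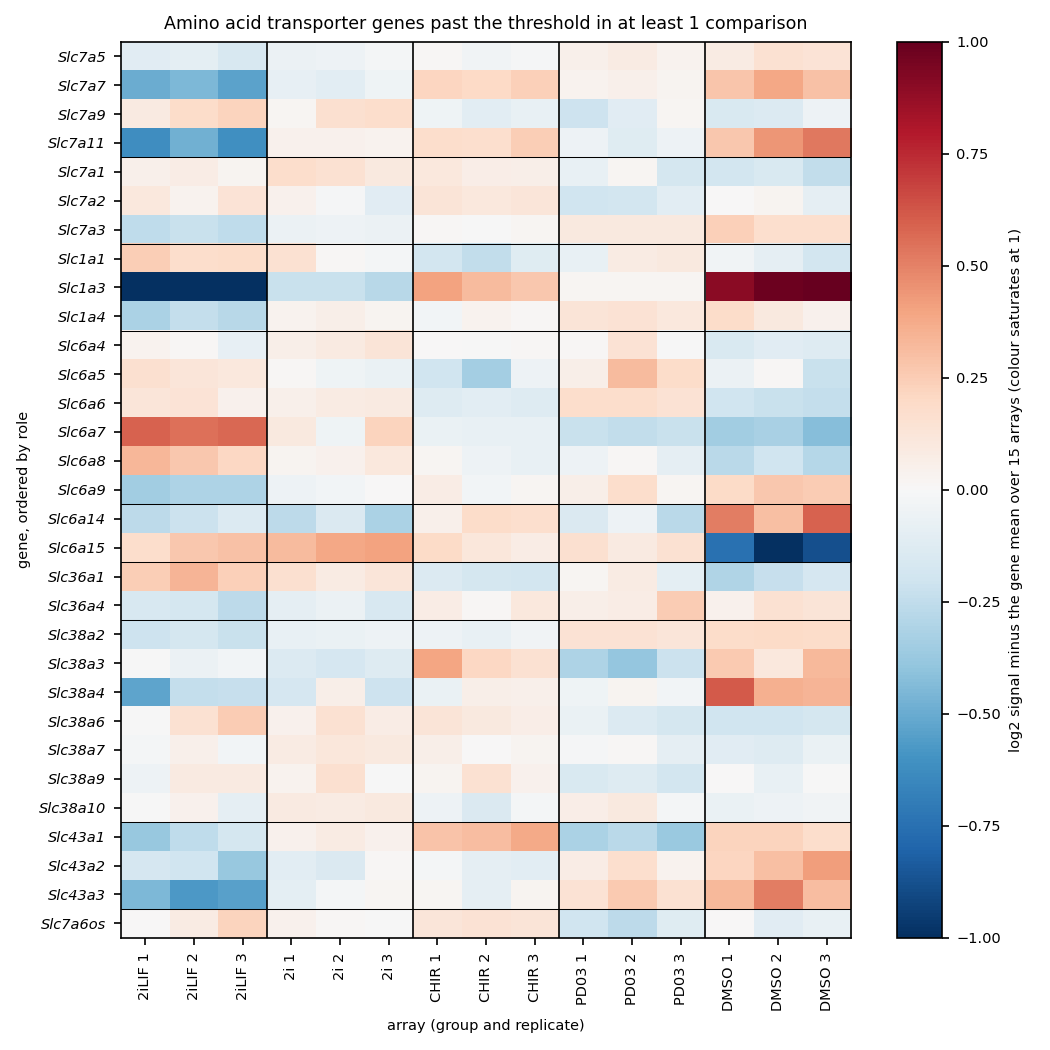
Each row is 1 of the 31 members that passed at least 1 comparison and each column 1 of the 15 arrays; colour gives the log2 signal minus the gene's mean over all arrays, saturating at 1. Slc1a3 runs from its lowest values in the 2iLIF arrays to its highest in the DMSO arrays, and Slc6a15 is low in the 3 DMSO arrays alone.

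With CHIR99021 alone, 20 members (31.2%) differed from DMSO, 10 higher and 10 lower, against 20.8% of all genes (10.0% higher and 10.8% lower). With PD0325901 alone, 17 members (26.6%) differed, 6 higher and 11 lower, against 16.8% of all genes (8.67% and 8.15%). With both inhibitors, 25 members (39.1%) differed from DMSO, 11 higher and 14 lower, against 25.5% of all genes (13.6% and 11.9%). The median log2 differences of the members were -0.03, 0.02 and 0.02, and those of all genes -0.01, 0.00 and 0.02. The median absolute difference for a single inhibitor was 0.08 for members and 0.06 for all genes. These 3 comparisons share the DMSO arrays, so their counts are not independent. With PD0325901 kept as well as CHIR99021 (2i minus CHIR), 10 members differed, 5 in each direction, against 9.46% of all genes (5.70% higher and 3.76% lower). With CHIR99021 kept as well as PD0325901 (2i minus PD03), 16 members differed, 9 higher and 7 lower, against 19.5% of all genes (10.1% and 9.44%). With LIF as well as both inhibitors (2iLIF minus 2i), 11 members differed, 2 higher and 9 lower, against 12.2% of all genes (4.56% higher and 7.66% lower). The interaction, which asks whether the effect of CHIR99021 differs with and without PD0325901, passed for 3 members, 2 above 0 and 1 below, against 2.04% of all genes (0.933% above and 1.10% below).

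The arrays of the groups compared did not overlap for 27 members in CHIR minus DMSO (31.9% of all genes), 31 in PD03 minus DMSO (31.4%), 29 in 2i minus DMSO (36.0%), 26 in 2i minus CHIR (26.8%), 29 in 2i minus PD03 (35.8%) and 29 in 2iLIF minus 2i (26.0%). The counts are out of 64 members, and in each comparison the members' share was above that of all genes, which was not tested. Non-overlap of 3 arrays against 3 is common in these data and is given below only as a description.

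Neither heavy chain passed a comparison. Slc3a2 (CD98 heavy chain), the partner of most light chains, read 13.01, 12.99 and 12.93 in 2iLIF, 13.07, 13.05 and 13.05 in 2i, 13.09, 13.07 and 13.09 in CHIR, 13.08, 13.09 and 13.07 in PD03, and 13.16, 13.11 and 13.14 in DMSO. The DMSO arrays were the highest and the 2iLIF arrays the lowest, but the distances were small, and 2i minus DMSO was -0.08 with an adjusted p of 0.0805. Slc3a1, the partner of the cystine and dibasic amino acid carrier Slc7a9, had group means of 6.01 to 6.14. By limma 0 of the 2 passed in any of the 7 comparisons, and 1 of the 2 had an unadjusted p under 0.05 in each of 5 of them.

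The light chain with the widest range of group means was Slc7a11 (xCT), the cystine/glutamate antiporter that brings in cystine for glutathione synthesis. It read 9.74, 9.88 and 9.75 in 2iLIF, 10.40, 10.40 and 10.39 in 2i, 10.54, 10.53 and 10.61 in CHIR, 10.31, 10.25 and 10.31 in PD03, and 10.64, 10.80 and 10.89 in DMSO. The 5 groups did not overlap. They stood in the order 2iLIF, PD03, 2i, CHIR, DMSO from low to high, and the neighbours PD03 and 2i (adjusted p = 0.212) and 2i and CHIR (adjusted p = 0.102) did not pass. Slc7a11 fell by 0.49 ± 0.06 with PD0325901 (adjusted p = 1.23e-05), a 1.40-fold decrease. It fell by 0.38 ± 0.06 with both inhibitors (adjusted p = 9.1e-05). With LIF kept as well as both inhibitors it was lower by a further 0.61 (log2 difference -0.61 ± 0.06, adjusted p = 1.72e-06, 1.53-fold). CHIR99021 alone gave -0.22 ± 0.06 (adjusted p = 0.0101), a call lost without DMSO replicate 3 (adjusted p = 0.0505) and when only the groups compared were fitted (0.0524).

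Slc7a7 (y+LAT1), which exchanges cationic for neutral amino acids, stood in nearly the same order. It read 10.78, 10.83 and 10.74 in 2iLIF, 11.20, 11.17 and 11.24 in 2i, 11.49, 11.48 and 11.52 in CHIR, 11.31, 11.33 and 11.31 in PD03, and 11.55, 11.66 and 11.57 in DMSO. No 2 groups overlapped, and 2iLIF was again lowest and DMSO highest. PD0325901 lowered it (-0.28 ± 0.04, adjusted p = 5.35e-05), and so did both inhibitors (-0.39 ± 0.04, adjusted p = 8.31e-07) and LIF on top of them (-0.42 ± 0.04, adjusted p = 1.34e-06). CHIR99021 alone gave -0.10, with an adjusted p of 0.0744.

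Slc7a5 (LAT1), the main importer of leucine and other large neutral amino acids, read 12.62, 12.63 and 12.57 in 2iLIF, 12.67, 12.68 and 12.71 in 2i, 12.74, 12.70 and 12.71 in CHIR, 12.78, 12.81 and 12.77 in PD03, and 12.81, 12.88 and 12.87 in DMSO. The 2iLIF arrays were the lowest, and the DMSO arrays reached down to the highest PD03 array. Both inhibitors lowered it by a log2 difference of -0.17 (adjusted p = 0.0014). CHIR99021 gave -0.13 (adjusted p = 0.00935), a call lost after centring each array on its median (0.0771) and with only the groups compared (0.056). The other light chains moved little: Slc7a6 (y+LAT2) had group means of 10.36 to 10.49 and Slc7a8 (LAT2) of 6.26 to 6.39, and neither passed in any comparison. Slc7a9, at 5.72 to 5.99, was 0.23 higher in 2i than in DMSO (adjusted p = 0.00739), at a signal that may be background. In all, 4 of the 9 light chains passed in 2i minus DMSO, 3 of them lower (25.5% of all genes passed and 11.9% were lower), and 2 passed in 2iLIF minus 2i, both lower (12.2% and 7.66%).

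**Figure D2:**
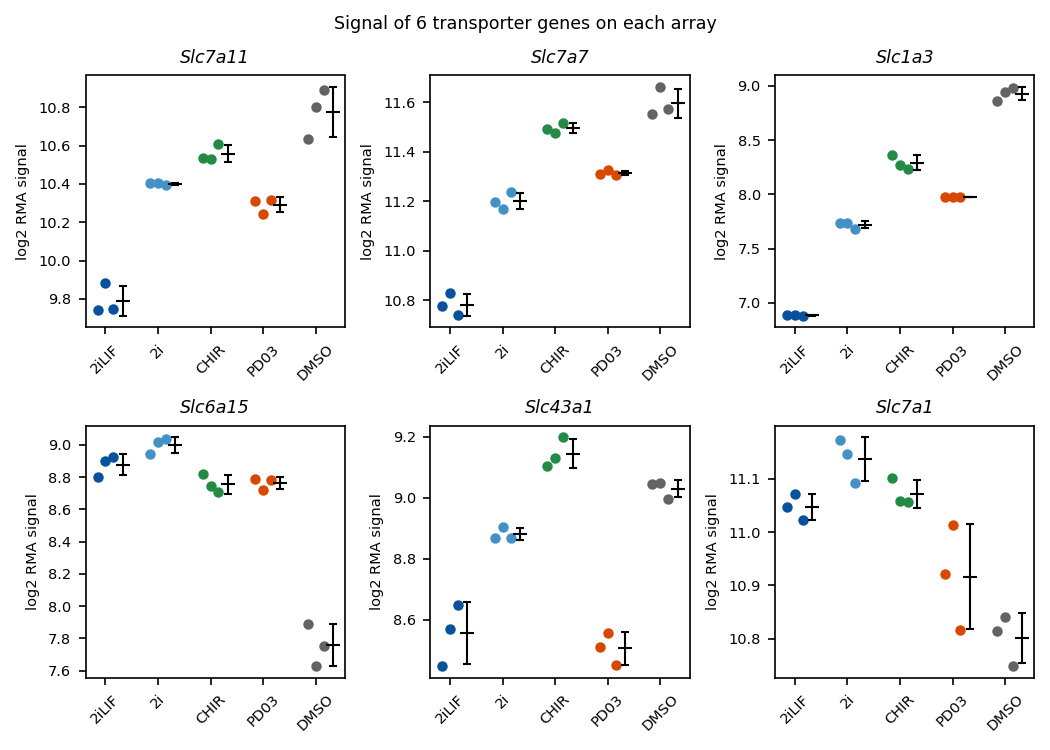
Points are single arrays, bars the group mean ± SD (n = 3), and the vertical axis is the log2 RMA signal of Slc7a11, Slc7a7, Slc1a3, Slc6a15, Slc43a1 and Slc7a1, each on its own scale. Slc1a3 steps down from 8.93 in DMSO to 6.89 in 2iLIF, while Slc6a15 lies between 8.76 and 9.00 in every group but DMSO, at 7.76.

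The cationic carriers, which bring in arginine and lysine, split in direction. Slc7a3 (CAT3) read 12.18, 12.22 and 12.19 in 2iLIF, 12.38, 12.39 and 12.38 in 2i, 12.45, 12.44 and 12.46 in CHIR, 12.54 in all 3 PD03 arrays, and 12.68, 12.61 and 12.61 in DMSO. Its 5 groups did not overlap. It fell with CHIR99021 (-0.18 ± 0.03, adjusted p = 0.000569), with both inhibitors (-0.25 ± 0.03, adjusted p = 1.82e-05) and with LIF on top (-0.19 ± 0.03, adjusted p = 0.000589).

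Slc7a1 (CAT1), the widely expressed arginine carrier, went the other way. It read 11.05, 11.07 and 11.02 in 2iLIF, 11.17, 11.15 and 11.09 in 2i, 11.10, 11.06 and 11.06 in CHIR, 10.92, 11.01 and 10.82 in PD03, and 10.81, 10.84 and 10.75 in DMSO. All arrays that had CHIR99021 lay above all that lacked it. The difference was 0.27 ± 0.05 for CHIR minus DMSO (adjusted p = 0.000466), 0.34 ± 0.05 for 2i minus DMSO (adjusted p = 3.79e-05) and 0.22 ± 0.05 for 2i minus PD03 (adjusted p = 0.00257). For PD03 minus DMSO it was 0.12, with an adjusted p of 0.106.

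Among the glutamate and neutral carriers of the Slc1 family, Slc1a3 (GLAST, a sodium-coupled glutamate importer best known from glia) had the widest range of group means of all 64 members, 2.04. It read 6.89, 6.89 and 6.88 in 2iLIF, 7.74, 7.74 and 7.68 in 2i, 8.37, 8.27 and 8.23 in CHIR, 7.98 in all 3 PD03 arrays, and 8.86, 8.94 and 8.98 in DMSO. The groups did not overlap, with DMSO highest, then CHIR, PD03, 2i and 2iLIF. Slc1a3 fell by 0.64 with CHIR99021 (adjusted p = 1.46e-08), by 0.95 with PD0325901 (adjusted p = 2.44e-10) and by 1.21 with both (adjusted p = 6.47e-12, 2.31-fold), with an SE of 0.04 for each. LIF on top of both inhibitors gave a further -0.83 ± 0.04 (adjusted p = 1.89e-09, 1.78-fold). It was the single member to pass all 7 comparisons. Over the 6 neural markers the mean was 7.48 in 2iLIF, 7.49 in 2i, 7.34 in CHIR, 7.74 in PD03 and 7.51 in DMSO, and their part in the Slc1a3 result was not tested.

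Slc1a4 (ASCT1), a carrier of alanine, serine, cysteine and threonine, passed in the comparison with LIF and in no other. It read 10.16, 10.24 and 10.20 in 2iLIF, 10.51, 10.54 and 10.51 in 2i, 10.45, 10.51 and 10.49 in CHIR, 10.61, 10.63 and 10.58 in PD03, and 10.67, 10.58 and 10.52 in DMSO. The 2iLIF arrays were below all others, and 2iLIF minus 2i was -0.32 ± 0.04 (adjusted p = 3.79e-05). Slc1a5 (ASCT2), the main glutamine importer of proliferating cells, had group means of 11.71 to 11.80 and passed no comparison.

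Of the 11 neurotransmitter and osmolyte carriers of the Slc6 family, 5 passed in 2i minus DMSO, 4 of them higher, against 25.5% of all genes passing and 13.6% higher. Slc6a6 (TauT), which imports taurine, read 11.77, 11.79 and 11.70 in 2iLIF, 11.70, 11.73 and 11.74 in 2i, 11.52, 11.55 and 11.52 in CHIR, 11.83, 11.83 and 11.80 in PD03, and 11.46, 11.43 and 11.41 in DMSO. The arrays with PD0325901 lay above those without it. Slc6a6 rose by 0.39 ± 0.03 with PD0325901 (adjusted p = 6.44e-07) and by 0.29 ± 0.03 with both inhibitors (adjusted p = 6.67e-06).

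Slc6a8, the creatine transporter, read 10.56, 10.51 and 10.44 in 2iLIF, 10.26, 10.28 and 10.34 in 2i, 10.25, 10.18 and 10.16 in CHIR, 10.18, 10.24 and 10.15 in PD03, and 9.96, 10.04 and 9.95 in DMSO. DMSO was lowest and 2iLIF highest, without overlap with the rest. Each inhibitor raised it by 0.21 ± 0.04 (adjusted p = 0.00199 for CHIR99021 and 0.00283 for PD0325901), both together by 0.31 ± 0.04 (adjusted p = 4.82e-05), and LIF by a further 0.21 ± 0.04 (adjusted p = 0.00342).

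Slc6a7, a proline transporter known mainly from neurons, read 7.58, 7.54 and 7.57 in 2iLIF, 7.09, 6.95 and 7.21 in 2i, 6.92, 6.91 and 6.92 in CHIR, 6.77, 6.75 and 6.77 in PD03, and 6.65, 6.67 and 6.56 in DMSO. It too was lowest in DMSO and highest in 2iLIF. Slc6a7 rose by 0.46 ± 0.05 with both inhibitors (adjusted p = 5.33e-06) and by 0.48 ± 0.05 with LIF (adjusted p = 9.51e-06). Slc6a9 (GlyT1), a glycine importer, went in the opposite direction, with 9.91, 9.95 and 9.94 in 2iLIF, 10.20, 10.22 and 10.25 in 2i, 10.32, 10.23 and 10.27 in CHIR, 10.32, 10.43 and 10.28 in PD03, and 10.45, 10.52 and 10.51 in DMSO. Its 2iLIF arrays were the lowest of all and its DMSO arrays the highest. Both inhibitors gave -0.27 ± 0.04 (adjusted p = 0.00019) and LIF a further -0.29 ± 0.04 (adjusted p = 0.000179).

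Slc6a15 (B0AT2), a sodium-coupled importer of proline and branched-chain amino acids, had the largest positive differences from DMSO among the members. It read 8.80, 8.90 and 8.93 in 2iLIF, 8.95, 9.02 and 9.04 in 2i, 8.82, 8.74 and 8.71 in CHIR, 8.79, 8.72 and 8.78 in PD03, and 7.89, 7.63 and 7.76 in DMSO. The DMSO arrays were far below the other 12, which lay close together. Slc6a15 was higher than in DMSO by 1.00 ± 0.06 in CHIR (adjusted p = 5.16e-09). The difference was 1.01 ± 0.06 in PD03 (adjusted p = 6.02e-09, 2.01-fold) and 1.24 ± 0.06 in 2i (adjusted p = 2.12e-10, 2.37-fold). Its 2iLIF mean was 8.88, so these differences reflect a lower signal after full withdrawal. LIF on top gave -0.12, with an adjusted p of 0.213.

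Slc6a14 (ATB0,+), a broad neutral and cationic importer, moved against Slc6a15 at a low signal. It read 5.52, 5.56 and 5.64 in 2iLIF, 5.52, 5.64 and 5.46 in 2i, 5.83, 5.96 and 5.95 in CHIR, 5.64, 5.73 and 5.51 in PD03, and 6.29, 6.08 and 6.37 in DMSO. It was highest in DMSO, and 2i minus DMSO was -0.71 ± 0.07 (adjusted p = 1.99e-06). Values this low may lie near background, where RMA compresses differences.

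**Figure D3:**
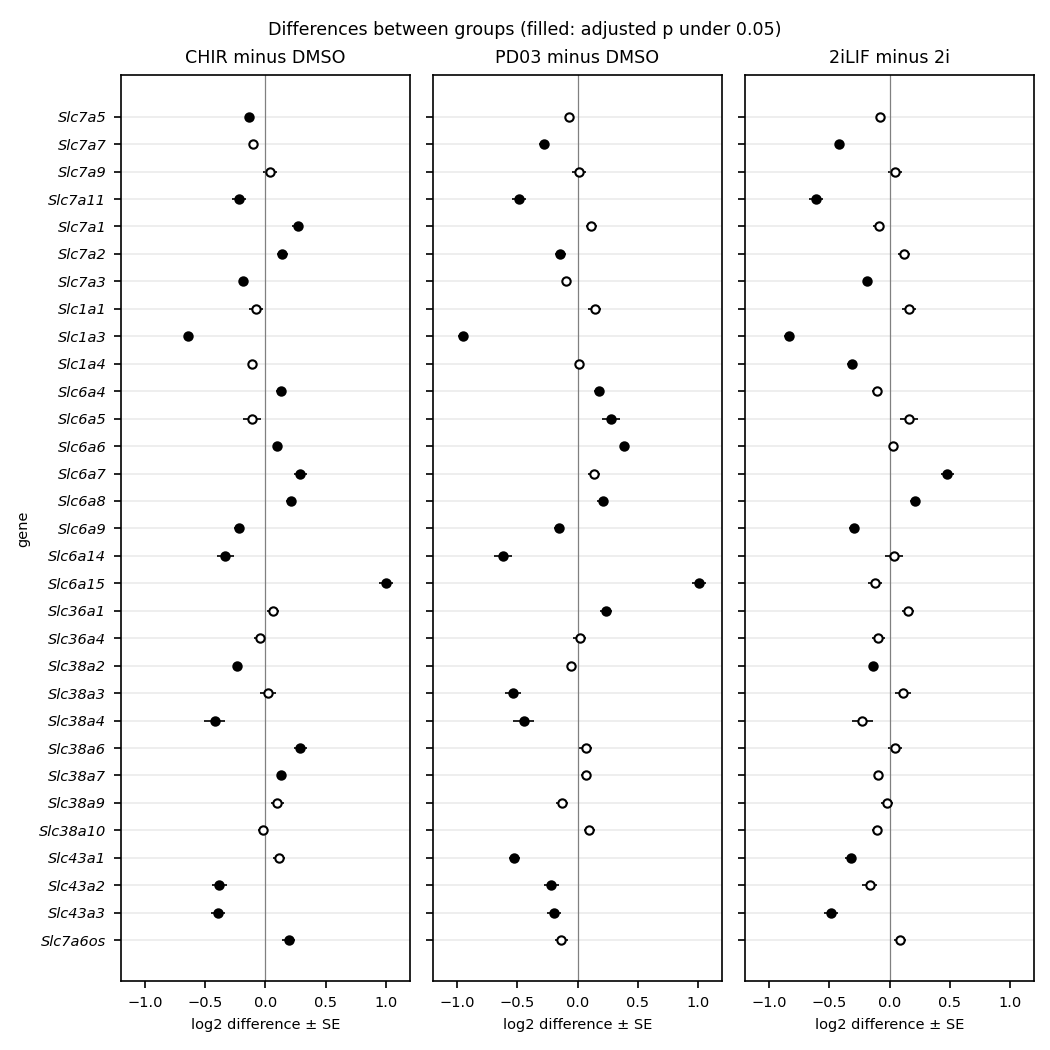
Each row is a member that passed at least 1 comparison; the horizontal axis is the log2 difference ± SE for CHIR minus DMSO, PD03 minus DMSO and 2iLIF minus 2i, with filled points where the adjusted p was under 0.05. Slc6a15 lies near 1 for both single inhibitors, Slc1a3 is negative in all 3, and 9 of the 11 filled points of 2iLIF minus 2i are negative.

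Of the 11 sodium-coupled neutral carriers of the Slc38 family, 3 were higher and 3 lower in 2i minus DMSO, against 13.6% and 11.9% of all genes. Slc38a2 (SNAT2), a glutamine and alanine importer known for its induction by amino acid starvation, read 12.33, 12.35 and 12.31 in 2iLIF, 12.46, 12.46 and 12.48 in 2i, 12.48, 12.46 and 12.50 in CHIR, 12.67, 12.68 and 12.65 in PD03, and 12.71, 12.72 and 12.72 in DMSO. Arrays with CHIR99021 were all lower than those without it. CHIR minus DMSO was -0.24 ± 0.03 (adjusted p = 3.22e-05), 2i minus PD03 was -0.20 ± 0.03 (adjusted p = 0.000201), and PD03 minus DMSO was -0.05 with an adjusted p of 0.319. Slc38a2 was lower still in 2iLIF, with 2iLIF minus 2i at -0.14 ± 0.03 (adjusted p = 0.00532).

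Slc38a3 (SNAT3), a glutamine carrier, followed PD0325901. It read 7.36, 7.31 and 7.34 in 2iLIF, 7.24, 7.20 and 7.25 in 2i, 7.77, 7.58 and 7.52 in CHIR, 7.06, 6.98 and 7.16 in PD03, and 7.63, 7.47 and 7.70 in DMSO. All arrays with PD0325901 lay below those without it. PD03 minus DMSO was -0.53 ± 0.07 (adjusted p = 2.24e-05) and 2i minus CHIR was -0.40 ± 0.07 (adjusted p = 0.000854), while CHIR minus DMSO was 0.02 (adjusted p = 0.877).

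Slc38a4 (SNAT4), an imprinted carrier of neutral amino acids, read 8.28, 8.57 and 8.58 in 2iLIF, 8.64, 8.87 and 8.60 in 2i, 8.74, 8.86 and 8.86 in CHIR, 8.77, 8.83 and 8.78 in PD03, and 9.42, 9.16 and 9.14 in DMSO. DMSO stood above the rest. Slc38a4 was lower with CHIR99021 (-0.42 ± 0.09, adjusted p = 0.00256), with PD0325901 (-0.45 ± 0.09, adjusted p = 0.00179) and with both (-0.54 ± 0.09, adjusted p = 0.000226). Slc38a1 (SNAT1), a glutamine importer, had group means of 11.55 to 11.71 and passed no comparison. Slc38a6, with little known of its transport, was 0.29 higher in CHIR than in DMSO (adjusted p = 0.0011) and 0.28 higher in 2i (adjusted p = 0.000962).

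Slc38a9, the lysosomal arginine sensor for mTORC1, read 9.07, 9.19 and 9.03 in 2i and 8.88, 8.91 and 8.85 in PD03. These arrays did not overlap, and the difference was 0.21 ± 0.05 (adjusted p = 0.0071), its only passing comparison. Its second, dimmer probe set had means of 7.06 in 2i and 6.99 in PD03. Slc36a1 (PAT1), a proton-coupled exporter of small amino acids from lysosomes, read 8.29, 8.39 and 8.29 in 2iLIF, 8.21, 8.13 and 8.17 in 2i, 7.91, 7.87 and 7.86 in CHIR, 8.07, 8.13 and 7.95 in PD03, and 7.75, 7.82 and 7.88 in DMSO. Arrays with PD0325901 were above those without it. PD03 minus DMSO was 0.23 ± 0.05 (adjusted p = 0.00316), 2i minus DMSO 0.36 ± 0.05 (adjusted p = 4.46e-05) and 2i minus CHIR 0.29 ± 0.05 (adjusted p = 0.00114). Slc36a4, of the same family, was lower in 2i than in DMSO (-0.21, adjusted p = 0.00711) and than in PD03 (-0.23, adjusted p = 0.00529). Its 2i mean, 5.915, may be background. Slc38a7, a lysosomal glutamine carrier, was 0.20 higher in 2i than in DMSO (adjusted p = 0.000779).

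All 3 Slc43 genes passed as lower in PD03 minus DMSO and in 2i minus DMSO (8.15% and 11.9% of all genes were lower), and Slc43a2 and Slc43a3 also in CHIR minus DMSO (10.8%). Slc43a1 (LAT3), a facilitative leucine carrier, read 8.45, 8.57 and 8.65 in 2iLIF, 8.87, 8.90 and 8.87 in 2i, 9.11, 9.13 and 9.20 in CHIR, 8.51, 8.56 and 8.45 in PD03, and 9.05, 9.05 and 9.00 in DMSO. PD03 and 2iLIF were the low groups and overlapped each other. PD0325901 lowered it by a log2 difference of -0.52 ± 0.05 (adjusted p = 9.56e-07), 2i minus PD03 was 0.38 ± 0.05 (adjusted p = 3.66e-05), and 2iLIF minus 2i was -0.33 ± 0.05 (adjusted p = 0.000192). The 2i minus DMSO difference was -0.15 (adjusted p = 0.0302). That call was lost after median centring (0.0529) and without 2i replicate 1 (0.0824), 2i replicate 3 (0.081), DMSO replicate 1 (0.0811) or DMSO replicate 2 (0.0826).

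Slc43a2 (LAT4), a carrier of the same kind, read 7.33, 7.30 and 7.11 in 2iLIF, 7.39, 7.35 and 7.50 in 2i, 7.47, 7.40 and 7.39 in CHIR, 7.57, 7.66 and 7.53 in PD03, and 7.71, 7.79 and 7.91 in DMSO. The DMSO arrays were above all others and the 2i and CHIR arrays overlapped. It was lower with CHIR99021 (-0.38 ± 0.06, adjusted p = 0.000375) and with both inhibitors (-0.39 ± 0.06, adjusted p = 0.000198). With PD0325901 it gave -0.22 (adjusted p = 0.0248), a call lost without PD03 replicate 1 (0.0732), PD03 replicate 3 (0.106), DMSO replicate 2 (0.0504) or DMSO replicate 3 (0.125). Slc43a3, which carries purine nucleobases rather than amino acids, read 7.29, 7.17 and 7.20 in 2iLIF, 7.64, 7.72 and 7.76 in 2i, 7.76, 7.65 and 7.77 in CHIR, 7.88, 8.00 and 7.89 in PD03, and 8.06, 8.25 and 8.05 in DMSO. It was lowest in 2iLIF and highest in DMSO, with 2i and CHIR overlapping. CHIR99021 gave -0.39 (adjusted p = 0.000129), both inhibitors -0.41 (adjusted p = 4.99e-05) and LIF on top of them -0.49 (adjusted p = 2.55e-05). PD0325901 gave -0.20 (adjusted p = 0.0282), a call lost with only the groups compared (0.077) and without PD03 replicate 1 (0.104), PD03 replicate 3 (0.103) or DMSO replicate 2 (0.13).

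One ordering recurred among the members and was picked out after the values were seen. In 9 of the 31 members that passed at least 1 comparison (29.0%), the 3 2iLIF arrays were the lowest of all 15 and the 3 DMSO arrays the highest: Slc1a3, Slc38a2, Slc38a4, Slc43a2, Slc43a3, Slc6a9, Slc7a11, Slc7a3 and Slc7a7. The share among all genes that passed at least 1 comparison was 5.88%. The opposite ordering held in 2 members (6.45%), Slc6a7 and Slc6a8, against 3.41% of all such genes. No chance test was made of either share, and members that differ more between 2iLIF and DMSO are more likely to be counted. Of the 9, 7 had a promoter entry. TGATGNAA was in 2 of these, Slc7a11 and Slc7a7 (3.91% of all genes), TGACNNNGC in 2, Slc38a2 and Slc6a9 (11.5%), and CTTTGAT and CACGTG in 0 (3.72% and 6.86%). Among all 22 passing members with an entry, the counts were 2, 4, 3 and 3 in the same order. As the 9 were picked from these values, the motif counts do not test a link to the ordering.

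The inhibitors together did less than the sum of their single differences in the 3 members that passed the interaction. Slc6a15 would have reached 9.76 in 2i if the single differences had added up, and its 2i mean was 9.00, an interaction of -0.76 ± 0.08 (adjusted p = 6.82e-05). Slc1a3 would have reached 7.34 and was at 7.72, an interaction of 0.38 ± 0.06 (adjusted p = 0.00167). Slc7a11 would have reached 10.07 and was at 10.40, an interaction of 0.33 ± 0.08 (adjusted p = 0.0446). For Slc7a11 the call was lost with the replicate number as a block (0.0545), after median centring (0.089), and without any one of 2iLIF replicate 3, the 2i, CHIR and PD03 replicates 1, 2 and 3, or DMSO replicates 2 and 3 (0.0518 to 0.113). Slc38a4 had an interaction of similar size, 0.33 ± 0.12, that did not pass (adjusted p = 0.258).

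**Figure D4:**
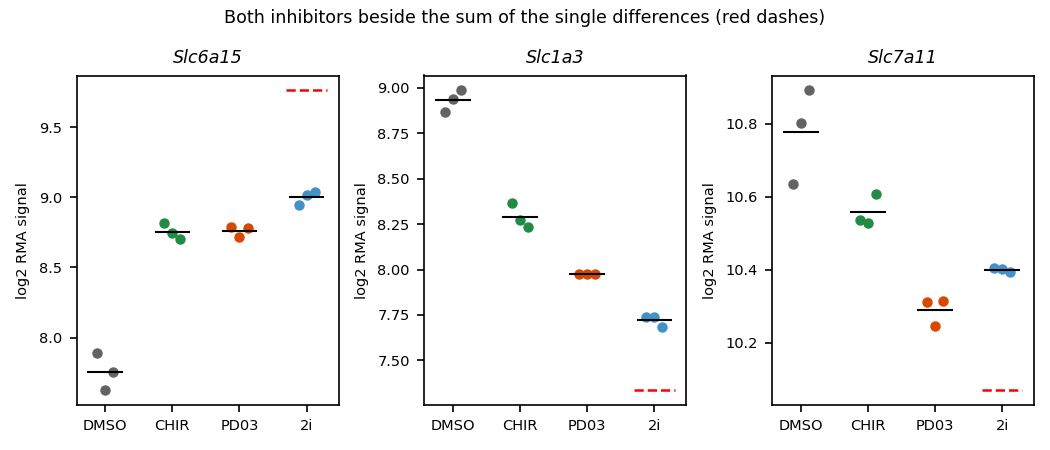
Points are single arrays of Slc6a15, Slc1a3 and Slc7a11 in DMSO, CHIR, PD03 and 2i (log2 signal), black lines the group means and red dashes the 2i level that the 2 single differences would sum to. The 2i arrays of Slc6a15 lie below the red dash (9.00 against 9.76) and those of Slc1a3 and Slc7a11 above it.

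Genes of linked pathways were counted in the same fit. Of 15 ATF4 and amino acid response genes, 7 (46.7%) passed in CHIR minus DMSO, all but 1 of them lower, against 20.8% of all genes, and 1 (6.67%) in PD03 minus DMSO, against 16.8%. In 2i minus DMSO 8 (53.3%) passed, 6 of them lower, against 25.5% of all genes, and in 2iLIF minus 2i 5 (33.3%), 4 of them lower, against 12.2%. The median log2 differences of the list in these comparisons were -0.03, -0.01, -0.05 and -0.04, and those of all genes -0.01, 0.00, 0.02 and -0.01. Chac1, which degrades glutathione, was lower with CHIR99021 (-0.43, adjusted p = 0.000125) and lower again with LIF (-0.34, adjusted p = 0.00163), and Ddit4, an mTORC1 inhibitor, fell with both inhibitors (-0.49, adjusted p = 1.98e-06). Asns, which makes asparagine, rose by 0.13 with CHIR99021 (adjusted p = 0.00527). Atf4 itself did not pass, with -0.10 in 2i minus DMSO (adjusted p = 0.0747).

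Of 15 glutathione and NRF2 pathway genes, 11 (73.3%) passed in 2i minus DMSO, 6 higher and 5 lower, against 25.5% of all genes. In 2iLIF minus 2i 2 (13.3%) passed, near the 12.2% of all genes. Their median difference in 2i minus DMSO was 0.05, and that of all genes 0.02. Gss, glutathione synthetase, rose by 1.12 ± 0.05 (adjusted p = 1.13e-10), and Gpx4, which reduces lipid peroxides with glutathione, by 0.52 (adjusted p = 0.000128). Gclc and Gclm, the subunits of the enzyme for the first step of glutathione synthesis, were lower (-0.29, adjusted p = 0.000947, and -0.28, adjusted p = 0.000726). Nfe2l2, the gene of NRF2, was 0.13 higher (adjusted p = 0.013). Keap1, of the same list, was higher too, with means of 8.14 in DMSO and 8.57 in 2i and no overlap of the arrays.

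Of 15 serine, glycine, threonine and proline metabolism genes, 7 (46.7%) passed in PD03 minus DMSO, 6 of them lower, against 16.8% of all genes, and 6 (40.0%) in 2i minus PD03, all 6 higher, against 19.5%. The medians were -0.06 and 0.13, against 0.00 and 0.01 for all genes. Gldc, the glycine decarboxylase, fell by 0.71 with PD0325901 (adjusted p = 4.17e-09) and was 0.27 higher in 2i than in PD03 (adjusted p = 0.000114). Of 11 glutamine, glutamate and arginine metabolism genes, 3 (27.3%) passed in 2i minus DMSO, all 3 higher, with a median of 0.01, near the 25.5% and 0.02 of all genes. Oat, ornithine aminotransferase, rose by 0.64 (adjusted p = 5.32e-08). Of 26 mTORC1 amino acid sensing genes, 8 (30.8%) passed in 2i minus DMSO, 3 higher and 5 lower, with a median of -0.03, near the share of all genes (25.5%). Rragd, a Rag GTPase, fell by 0.57 with PD0325901 (adjusted p = 2.08e-07).

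Of 19 amino acid carriers outside the 7 families, 5 (26.3%) passed in 2i minus DMSO, 4 of them higher, with a median of 0.06; the share of all genes was 25.5%. Slc15a1, a proton-coupled importer of di- and tripeptides, rose by 2.68 ± 0.13 (adjusted p = 2.67e-10), and Ctns, which exports cystine from lysosomes, by 0.46 (adjusted p = 6.32e-06). Slc16a10, an exporter of aromatic amino acids, was lower (-0.38, adjusted p = 0.000117).

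The 33 members that passed nothing were mostly of low signal. Of these, 29 had a highest group mean under 8. The largest difference among the 33 was 0.18, for Slc38a8 in 2i minus DMSO (adjusted p = 0.129), and the smallest adjusted p was 0.068, for Slc6a16 in CHIR minus DMSO.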

How the data were processed

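The authors deposited log2 signals per probe set, summarised with RMA per the submitters' processing notes (version not given in the sources used here). This step equalises the arrays' distributions, which hides shifts shared by most genes, and it compresses low signals. The table held 34760 probe sets on 15 arrays, with array medians of 6.98 to 7.06 and 0 unused columns. Of these, 21640 had 1 gene symbol in the platform annotation, 1321 had several and named no gene, and 11799 were unnamed. For 954 genes, among them 2 members, the probe set with the highest mean was used. All 64 members matched a RefSeq symbol.

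All arrays and genes entered one no-intercept model of the 5 groups, fitted with limma 3.58.1 (lmFit, eBayes) in R 4.3.3, tested two-sided and adjusted by Benjamini-Hochberg over 19937 genes for each of 7 comparisons. The fit had 10 residual and 5.09 prior degrees of freedom. Precision is limited by array number: the median SE of a difference was 0.0509, and 0.072 for the interaction. The procedure was tested on simulated data.

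Members, gene lists and tests were chosen with earlier results of these data known. Named with values were a short list of carriers, the up to 6 members with the highest and lowest passing difference per comparison, the 2 with the widest range and highest mean per family, and up to 4 passing genes per list. Some genes the rule gives are left out of the text. Marker lists checked the cell type. Alternatives were a replicate block, a low-value filter (a group mean of at least 6), the mean of probe sets, limma's trend, the compared groups alone, median centring, a 1.5-fold minimum and leaving out each array.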

Additional observations from a re-analysis of the deposited data

Results flagged for a closer look

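In 3 members the effect of CHIR99021 differed with and without PD0325901 by the interaction test itself. The interaction was -0.76 for Slc6a15 (adjusted p = 6.82e-05), 0.38 for Slc1a3 (adjusted p = 0.00167) and 0.33 for Slc7a11 (adjusted p = 0.0446). All 3 are limma values over the 15 arrays. Slc6a15 and Slc1a3 passed under all alternatives that keep the fold free. Slc7a11 was lost under 14 of 21, with its sign kept in each. Groups of 3 arrays are too small for a check of single arrays that stand apart.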

How the results depend on the processing

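Of the 102 pairs of a member and a comparison that passed, 78 passed under every alternative without a fold minimum and 24 were lost under at least 1, with no change of sign. The lost ones had adjusted p-values up to 0.173, and the most fragile were those of Slc7a2, Slc7a5 in 2i minus PD03, Slc7a7 in 2i minus PD03, Slc6a6 in CHIR minus DMSO and the Slc7a11 interaction. Of 346 pairs that did not pass, 36 passed under some alternative. Counts of members moved by over 1.5 times under these settings alone: a 1.5-fold minimum left 2 in CHIR minus DMSO, 3 in PD03 minus DMSO, 3 in 2i minus DMSO, 0 in 2i minus CHIR, 0 in 2i minus PD03, 1 in the interaction and 2 in 2iLIF minus 2i; the interaction rose from 3 to 5 with the low-value filter and to 5 with the compared groups alone. For both counts of 0 in limma, 0 members reached 1.5-fold at an unadjusted p under 0.05 as well.

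Leaving out each array gave 16 to 20 members in CHIR minus DMSO, 13 to 18 in PD03 minus DMSO, 23 to 26 in 2i minus DMSO, 8 to 12 in 2i minus CHIR, 12 to 17 in 2i minus PD03, 2 to 4 in the interaction and 11 to 12 in 2iLIF minus 2i. With the replicate number as a block the counts were 18, 16, 25, 11, 14, 2 and 11 in the same order of comparisons. Correlations of the arrays' deviations from the group means ran from -0.364 to 0.341 over 30 same-number pairs (median -0.0136). They ran from -0.432 to 0.443 over 60 other pairs (median 0.0423), and 4 of 15 arrays correlated best with their own number. Deviations sum to 0 within a group, so positive and negative correlations between 2 groups are tied together and partly cancel. The medians therefore cannot exclude technical shifts shared by arrays. Single pairs reached 0.443 (2iLIF replicate 1 with DMSO replicate 2) and -0.432 (2iLIF replicate 1 with 2i replicate 2). Whether a shift across numbers underlies such pairs was not tested. Signals under 6 may be background, which limits Slc6a14, Slc36a4, Slc6a4 and Slc7a9.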

Other observations

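Slc38a1, the glutamine importer that passed no comparison, has a second, dimmer probe set. Its group means were 8.84 in 2iLIF, 8.92 in 2i, 9.10 in CHIR, 8.88 in PD03 and 8.95 in DMSO, with the highest mean in CHIR, whereas the set used here had its highest mean in DMSO, 11.71. Slc7a6os, named for the strand opposite Slc7a6, was 0.21 higher in 2i than in PD03 (adjusted p = 0.00855, limma) while Slc7a6 passed no comparison.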
